A study of Mus musculus with 4 samples.

Results

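Msi2, Msi1, Igf2bp1, Igf2bp2, Igf2bp3, Lin28a, Lin28b and Hmga2 are 8 genes of the Musashi, IGF2BP and LIN28 families and their fetal partner Hmga2, and they are described here by their open chromatin in mouse hematopoietic stem cells with and without Cpt1a, the enzyme that passes fatty acids into mitochondria. ATAC-Seq, in which a transposase cuts DNA where it is accessible and pile-ups of fragment ends (peaks) mark open chromatin, was done on sorted bone marrow cells in 4 libraries: control 1, control 2, KO 1 and KO 2. The labels give the genotypes as WT for the controls and Cpt1a-KO for the others, whereas the study's methods describe the controls as Cpt1a fl/fl mice and the KO as the same floxed line crossed to Vav1-Cre, a driver active throughout the hematopoietic system, so that mature blood cells lose Cpt1a as well as stem cells. All mice were on a C57BL/6, CD45.2 background and, unless stated otherwise, adults of both sexes. The labels call the cells ltHSC (long-term HSCs) and the study calls them HSPCs, and neither says whether the 2 libraries of a genotype came from separate or pooled mice, so the spread between them may be technical. Of 337776 merged peak regions on the autosomes and X, 137553 were held by at least 2 libraries, and 176 of these lay in the 8 gene bodies or within 5000 bp of them. Another 264 regions at these genes were seen in 1 library only and are not described further.

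The genes were chosen by measured values, the presence and the within-library rank of their peaks in these same libraries, so the values that follow are a description and carry no test. An exact permutation test of 2 libraries against 2 cannot give a two-sided p below 0.333. The region nearest to the inner side of the 5000 bp limit lay 2850 bp from Lin28b, in all 4 libraries, and the nearest one beyond it lay 6444 bp from Hmga2, only in the KO libraries, at percentiles 30.0 and 38.0 (the percentile is the place of a region's highest fold among all union regions of its library).

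Musashi proteins bind mRNAs and alter their translation. Msi2 is the family member best known in blood, where it supports stem cell self-renewal, and Msi1 is best known in neural progenitors. LIN28A and LIN28B bind let-7 precursors and block their maturation, and in fetal blood stem cells a high Lin28b keeps let-7 low. The let-7 targets include Hmga2, a DNA-binding architectural protein and the only member here that is not known chiefly as an RNA-binding protein, and the IGF2BP proteins, which bind mRNAs and protect them from decay. Lin28b, Igf2bp3 and Hmga2 are known as genes of the fetal program that recede in adult stem cells.

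The promoters of 6 members were available from RefSeq (GRCm38.p6, the assembly that mm10 names), each as a window from 250 bases before the start to 50 after it. Msi1 and Igf2bp1 had none. The windows of 4 genes are shown because they cover the combinations seen below: a start rich in CpG and one near the median, both with a region in all 4 libraries (Msi2 and Hmga2), and tabulated starts above and below the median CpG count with none (Igf2bp3 and Lin28b). The tabulated Lin28b start lies inside its gene model. Each is printed 5′ to 3′ on the minus strand, the strand of the gene, and the capitals mark every CpG.
Msi2 (chr11:88718228-88718527): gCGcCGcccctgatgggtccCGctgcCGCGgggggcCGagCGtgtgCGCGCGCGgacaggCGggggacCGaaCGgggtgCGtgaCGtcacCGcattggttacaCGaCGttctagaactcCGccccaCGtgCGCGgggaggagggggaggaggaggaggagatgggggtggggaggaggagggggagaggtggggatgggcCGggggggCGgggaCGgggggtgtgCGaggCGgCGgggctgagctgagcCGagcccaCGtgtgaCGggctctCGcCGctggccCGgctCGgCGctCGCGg
Hmga2 (chr10:120476420-120476719): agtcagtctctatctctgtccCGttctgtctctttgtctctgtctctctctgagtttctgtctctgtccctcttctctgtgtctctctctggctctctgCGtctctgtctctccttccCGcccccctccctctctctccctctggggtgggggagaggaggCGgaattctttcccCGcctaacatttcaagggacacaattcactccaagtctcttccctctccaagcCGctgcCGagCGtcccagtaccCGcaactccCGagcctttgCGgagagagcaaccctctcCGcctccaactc
Igf2bp3 (chr6:49214905-49215204): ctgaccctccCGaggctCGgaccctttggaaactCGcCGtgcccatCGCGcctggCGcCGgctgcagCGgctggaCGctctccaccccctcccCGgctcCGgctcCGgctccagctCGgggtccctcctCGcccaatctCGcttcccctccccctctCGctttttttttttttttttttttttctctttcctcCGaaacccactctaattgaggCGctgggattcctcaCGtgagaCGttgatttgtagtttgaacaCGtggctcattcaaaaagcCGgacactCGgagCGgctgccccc
Lin28b (chr10:45470152-45470451): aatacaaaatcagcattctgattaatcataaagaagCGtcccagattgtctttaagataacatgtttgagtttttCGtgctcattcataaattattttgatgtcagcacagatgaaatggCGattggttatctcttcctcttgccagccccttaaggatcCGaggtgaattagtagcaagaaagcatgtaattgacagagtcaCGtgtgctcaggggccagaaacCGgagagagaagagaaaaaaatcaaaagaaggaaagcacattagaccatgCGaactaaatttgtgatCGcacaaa

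The Msi2 window held 39 CpG and 76.3% GC. The Igf2bp2 window, which is not printed, held 47 CpG and 76.7% GC. Against 21044 windows of protein-coding genes, with a median of 13 CpG and 56.7% GC, their CpG counts stood at percentiles 94.5 and 98.3. Igf2bp3 had 25 CpG and 60.3% GC, Hmga2 12 and 57.7%, Lin28a 10 and 63.3%, and Lin28b 8 and 39.0%. The Igf2bp3 window also contains a long run of T.

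Short motifs of 5 kinds, of blood factors and of CTCF, were searched on both strands of these windows. The RUNX motif was TGTGGT. The GATA motif was AGATAA. The PU.1 motif was GAGGAAGT. The E-box was CAGCTG. The CTCF core was AGGGGGC or its variant AGGTGGC. Lin28b had 2 GATA matches, 1 on each strand, and Lin28a had 1 CTCF core match. The Msi2, Igf2bp2, Igf2bp3 and Hmga2 windows had no match to these letters. Among all 21044 windows, the share with a match was 14.8% for RUNX, 9.68% for GATA, 3.15% for PU.1, 15.7% for the E-box and 18.4% for the CTCF core. No match overlapped another, and a match in 300 bases describes the sequence only.

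The 4 lists were called separately on each library, with 240881 summits in KO 2 to 277531 in control 1, and they hold no read counts, so the depth behind them is unknown. Merged within each library they gave 179257 intervals in control 1, 161962 in control 2, 196570 in KO 1 and 175484 in KO 2. These covered 52.88, 48.89, 42.58 and 44.35 Mb in the same order, so KO 2 was the shortest list by summits only. Of all union regions, control 1 held 86.4%, control 2 85.1%, KO 1 82.9% and KO 2 78.3%, and KO 2 alone lacked 6.56% of them against 2.6% to 4.02% for the other libraries. The targeted gene Cpt1a had a region over its start in all 4 libraries and held 17 and 15 of its 18 regions in the controls against 14 in each KO library, and a peak list does not show the deletion. The 8 HSC markers with a start window (Procr, Kit, Slamf1, Mecom, Hlf, Mllt3, Gata2 and Meis1) had a region over the start in every library, and the 3 T cell markers (Cd3e, Cd3d and Cd8a) had none in any. Both B cell markers with a window (Cd79a and Pax5) and 2 of 3 neutrophil and macrophage markers (Ltf and S100a8) were also open in all 4, and Elane was open in all but control 1. The erythroid Klf1 start had no region in any library and that of Epor was open in control 1 alone. Of 4 genes not of blood, the starts of Neurod1 and Cdx2 were open in all 4, so an open start alone does not mark a cell type.

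The starts of Msi2, Igf2bp2 and Hmga2 were open in all 4 libraries. The tabulated start windows of Igf2bp3, Lin28a and Lin28b had no peak in any, where a missing peak means only that the library's threshold was not reached. The Lin28b window lies inside the gene model, and the upstream end of that model was covered by a region in all 4 libraries. Among 17273 protein-coding genes with a start window, 64.2% had a region over it in all 4 libraries, beside 3 of the 6 members with a window. At Msi2 the region chr11:88717745-88719109 covered the start with a deposited fold (how many times the summit's signal exceeds the background of its own library) of 12.02 and 9.95 in the controls against 11.21 and 9.23 in the KO libraries. The genotypes overlapped, and the region ranked between percentiles 82.9 and 88.6 of its libraries. It also covers the start of C030037D09Rik, so its signal cannot be given to Msi2 alone. At Igf2bp2 the region chr16:22162271-22163779 had folds of 4.96 and 5.85 in the controls against 7.3 and 4.6 in the KO libraries, with KO 1 highest and KO 2 lowest. At Hmga2 2 regions reached the window. The wider, chr10:120475651-120476475, had folds of 4.96 and 4.32 in the controls against 5.19 and 5.16 in the KO libraries. Both KO values lay above both controls, with the control mean at 0.896 of the KO mean, and the percentiles (57.2 and 48.1 against 58.8 and 59.6) were separated by only 1.5 points. The narrower, chr10:120476694-120476997, was the stronger in 3 of the 4 libraries, with folds of 5.86 and 5.18 in the controls against 4.71 and 5.6 in the KO libraries, and the genotypes overlapped there.

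The 3 tabulated starts without a peak had open chromatin close by. The nearest region to the Igf2bp3 window was 77 bp away, chr6:49214670-49214828, with a peak in control 2 (fold 2.93) and KO 1 (fold 2.69) only. The nearest to Lin28a was 315 bp away, chr4:134017946-134018452, with folds of 2.59 and 4.12 in the controls against 4.31 and 3.55 in the KO libraries. The nearest to Lin28b was 450 bp away, chr10:45469031-45469702, with folds of 4.22 and 4.74 in the controls, no peak in KO 1 and 6.11 in KO 2. None of these 3 separates the genotypes. On the other side of the Igf2bp3 window, 0.6 kb before the start, the weak region chr6:49215372-49215650 overlaps the upstream end of the gene model. It had folds of 3.15 and 3.59 in the controls and 1.83 in KO 1, with no peak in KO 2. Further upstream, Lin28a had a stronger region 1.9 kb before its start, chr4:134020415-134021077, with folds of 10.84 and 14.03 in the controls against 12.51 and 11.31 in the KO libraries. Igf2bp3 had one 3.0 kb before its start, chr6:49217550-49218383, with folds of 7.77 and 9.2 in the controls against 7.23 and 5.95 in the KO libraries. Lin28b had its widest region, chr10:45485593-45487104, 16.1 kb before the tabulated start, over the upstream end of the gene model. It had folds of 5.6 and 7.35 in the controls against 6.45 and 6.04 in the KO libraries. A transcript start other than the tabulated one was not examined.

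Msi1 and Igf2bp1 had no start window, so the ends of their gene models stand in. The region over the first base of Msi1, chr5:115358906-115359172, had folds of 10.54 and 12.49 in the controls against 10.81 and 11.16 in the KO libraries, and it lies within the gene model of 4930401G09Rik as well. The region over the last base of Igf2bp1, chr11:96005168-96005967, had folds of 5.35 and 5.62 in the controls against 5.34 and 3.79 in the KO libraries. Control 1 and KO 1 were nearly equal at Igf2bp1, and KO 2 was the lowest of the 4.

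**Figure D1:**
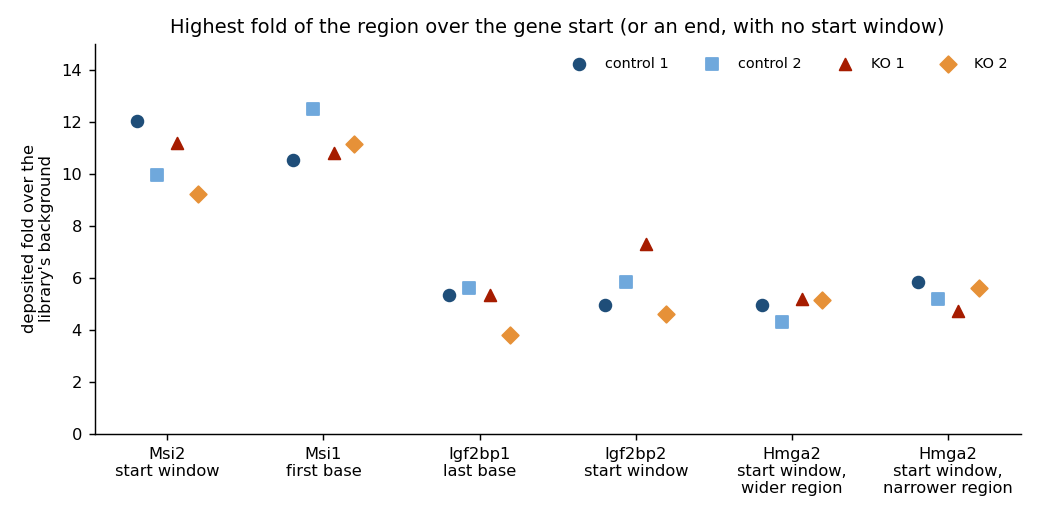
Deposited fold (y axis, ratio to the library's background) of the strongest summit of the region over each start window, or over the first or last base of the gene model for Msi1 and Igf2bp1 (x axis), with 1 point per library and both Hmga2 regions shown. The points of Msi2 lie between 9.23 and 12.02, those of the wider Hmga2 region between 4.32 and 5.19 and those of the narrower between 4.71 and 5.86. Igf2bp3, Lin28a and Lin28b are left out because no library had a peak over their tabulated start window.

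Of the 176 regions, 147 were held by control 1, 139 by control 2, 138 by KO 1 and 118 by KO 2. The order is that of the share of all union regions each library held, and KO 2 alone lacked 17 of them (9.66%). All 4 libraries held 76 regions (43.2%), fewer than the 58.4% over all union regions, 38 were held by 3 libraries and 40 by 1 library of each genotype. Both controls and no KO library held 16 regions (9.09%, beside 6.05% of all union regions). Both KO libraries and no control held 6 (3.41%, beside 3.47%). The share only in KO was near the background and the share only in control above it, and 9 of the 16 regions only in control were at Msi2.

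The regions only in 1 genotype were narrow and weak. Those only in control had a median width of 210 bp and a median fold of 2.58 in control 1 and 2.97 in control 2, and those only in KO had a median width of 239 bp and a median fold of 2.61 in KO 1 and 2.89 in KO 2. The regions in all 4 libraries had a median width of 522 bp and median folds of 5.15, 5.55, 4.97 and 4.68 in control 1, control 2, KO 1 and KO 2. The highest −log10 q of any region only in control was 5.87, and that of any region only in KO was 3.4. When summits with a −log10 q under 5 were left out, both controls alone held 3 of 58 regions (5.17%, beside 7.02% of all regions under that setting). Both KO libraries alone held 0 (beside 0.807%). The 3 are not among the 16 above, none of which reached that limit in control 1 (highest −log10 q 3.82). In the full lists each lay in a region that a KO library also held. With the 100000 strongest summits of each library, each genotype alone held 1 region (1.85% of 54, beside 2.75% of all regions for the controls and 3.11% for the KO libraries). With lists of equal length the controls alone held 7.48% of 147 member regions, beside 4.74% of all, and the KO libraries alone 3.4%, beside 3.9%.

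**Figure D2:**
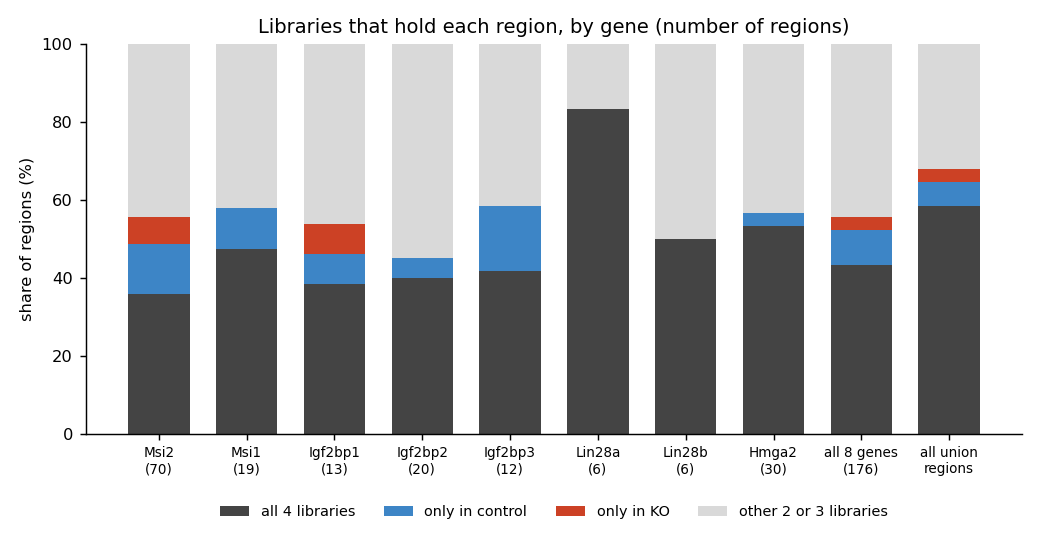
Share of the regions of each gene (y axis, percent; number of regions in brackets) held by all 4 libraries, only by both controls, only by both KO libraries, or by other sets of 2 or 3 libraries, beside all 8 genes and all union regions. Msi2 has the lowest share in all 4 libraries (35.7%) and Lin28a, with 6 regions, the highest (83.3%).

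Msi2 (chr11:88339382-88718306, 379 kb) held 70 of the 176 regions, all within the gene body. That made it the gene with the 10th most regions among 21627 protein-coding genes, of which the median had 3. Per length it was less unusual, with 18.0 regions per 100 kb against a median of 9.78 over protein-coding genes and 5.55 over the 2426 of them that are 100 kb or longer, and its density stood at percentile 75.2. The regions were spread along the gene, with 25 in the first 100 kb from the start, 22 in the next, 16 in the next and 7 in the remainder. The 25 regions in all 4 libraries were a median of 11.0 kb apart (0.13 to 53.9 kb).

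The strongest Msi2 regions did not separate the genotypes. Besides the start, the highest were chr11:88692479-88692779, 25.6 kb into the gene, and chr11:88550727-88551301, 167.3 kb into it. The first had folds of 8.76 and 10.19 in the controls against 11.95 and 9.06 in the KO libraries, and the second 10.4 and 8.47 in the controls against 8.15 and 10.33 in the KO libraries. Control 1 and KO 1 gave the extremes of both regions, in opposite order. Only 4 Msi2 regions were above percentile 75 in every library, among 11 for all 8 genes.

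Msi2 had 9 regions only in control (12.9%) and 5 only in KO (7.14%), beside 6.05% and 3.47% of all union regions, so both shares were above the background. The strongest of the former were chr11:88525196-88525644 (folds 3.55 in control 1 and 3.7 in control 2), chr11:88455529-88455834 (3.02 and 3.0) and chr11:88414043-88414302 (3.2 and 2.99), between 192.9 and 304.1 kb into the gene. None had a −log10 q above 4.58. The strongest of those only in KO were chr11:88583601-88583778 (folds 3.58 in KO 1 and 2.97 in KO 2) and chr11:88457485-88458146 (2.34 and 3.76), followed by chr11:88430271-88430504 (3.21 and 2.43) and chr11:88449031-88449554 (2.26 and 3.07). Regions of the opposite directions lay side by side at 260.5 kb (only in KO) and 262.6 kb (only in control). KO 2, with the fewest summits but more intervals than control 2, alone lacked 9 Msi2 regions (12.9%). Control 1 alone lacked 2, KO 1 lacked 3 and control 2 lacked 0. The part of list length in these counts was not tested beyond the equal-length lists. Under those, Msi2 had 5 regions of the controls alone and 2 of the KO libraries alone. Of all union regions under that setting, 4.74% were of the controls alone and 3.9% of the KO libraries alone. The Msi2 total was not taken there, so its shares cannot be set beside these.

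Across the 25 Msi2 regions in all 4 libraries the median percentile was 57.9 in control 1, 55.1 in control 2, 51.2 in KO 1 and 49.2 in KO 2. Both KO values lay below both controls, and the means differed by -6.3 (KO minus control). The SD between libraries of a genotype was 1.7, which may be technical and is no measure of variation between mice. Over all regions in all 4 libraries the medians were 66.0, 65.5, 64.7 and 62.5 in the same order. The Msi2 difference turned to 9.6 with the 100000 strongest summits of each library, to 1.5 without control 1 and to 0.5 without KO 2, so its direction depends on single libraries.

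**Figure D3:**
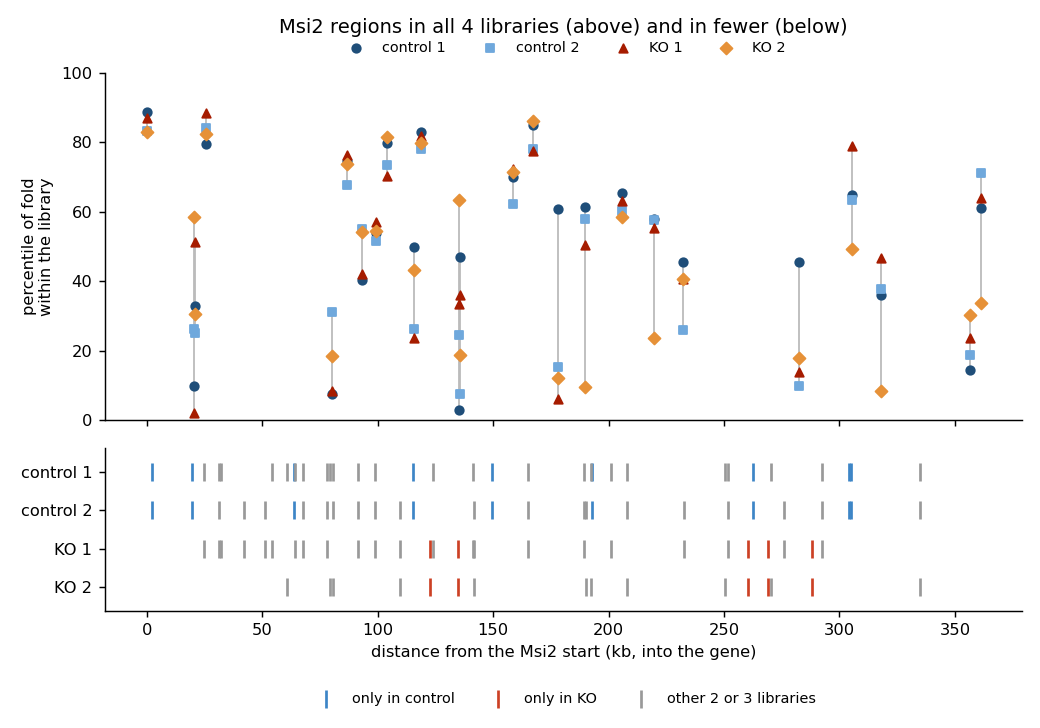
Msi2 regions by distance from the start (x axis, kb into the gene). Above, the percentile of each region's highest fold within its library (y axis) for the 25 regions in all 4 libraries, with a grey line joining the libraries. Below, a tick for each library holding a region that fewer libraries share, coloured by whether it is only in control (9), only in KO (5) or in another set. The points of the genotypes intermix along the gene.

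Msi1 (chromosome 5) had 19 regions, 9 of them in all 4 libraries, 2 only in control and 0 only in KO. Its strongest region besides the one at the first base was chr5:115441358-115442089, with folds of 10.01 and 9.82 in the controls against 10.23 and 8.4 in the KO libraries, which overlap. The third, chr5:115436380-115437044, was weaker, with folds of 5.23 and 3.91 in the controls against 5.19 and 5.39 in the KO libraries. The stronger of its 2 regions only in control, chr5:115403736-115404140, had folds of 3.3 and 4.5. Control 2 alone lacked 3 Msi1 regions, so absences were not confined to the KO lists.

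Igf2bp1 (chromosome 11) had 13 regions, with 5 in all 4 libraries, 1 only in control (chr11:95976391-95976550, folds 2.92 and 2.97) and 1 only in KO (chr11:95991238-95991423, folds 2.88 and 2.72). Its strongest region, chr11:95981109-95981451, had folds of 11.24 and 10.67 in the controls against 10.65 and 8.15 in the KO libraries. Control 2 and KO 1 were nearly equal, and the percentiles (86.9 and 85.3 against 85.5 and 79.0) overlapped. At chr11:95959248-95959576 the folds were 5.52 and 5.63 in the controls against 6.42 and 3.26 in the KO libraries, so that the KO libraries gave both the highest and the lowest value.

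Igf2bp2 (chromosome 16) had 20 regions, with 8 in all 4, 1 only in control and 0 only in KO. Its strongest, chr16:22107915-22108506, had folds of 9.11 and 9.98 in the controls against 8.04 and 10.99 in the KO libraries, where the KO values enclose the controls. At chr16:22115935-22116472, 47.1 kb inside the gene, the folds were 9.32 and 8.94 in the controls against 5.91 and 7.32 in the KO libraries. Both controls were higher there, with a gap of 5.2 percentile points, and 10.5% of the regions in all 4 libraries were lower in KO by as wide a gap. The neighbouring chr16:22118876-22119941 had folds of 8.74 and 6.48 in the controls against 4.87 and 6.95 in the KO libraries, and the genotypes overlapped.

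Igf2bp3 (chromosome 6) had 12 regions, with 5 in all 4 libraries, 2 only in control and 0 only in KO, at 8.56 regions per 100 kb. It also had the widest separation between the genotypes among the 8 genes. The region chr6:49175994-49176566, 38.7 kb inside the gene and 36694 bp from the nearest start of another gene, had folds of 13.0 and 13.05 in the controls against 6.19 and 6.11 in the KO libraries. The libraries of each genotype lay close together, and the control mean was 2.12 times the KO mean. As percentiles these were 90.5 and 90.6 against 66.9 and 67.7, a gap of 22.8 points between the nearest libraries, and 0.908% of the 80271 regions in all 4 libraries (729 regions) were lower in KO by as wide a gap. The −log10 q was 33.2 and 36.0 in the controls against 9.46 and 7.72 in the KO libraries. The region nearer to the start, chr6:49208313-49208898, which also lies in the gene model of D030074P21Rik, had folds of 9.13 and 6.26 in the controls against 5.43 and 6.36 in the KO libraries, and the genotypes overlapped.

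Lin28a (chromosome 4) had 6 regions, 5 of them in all 4 libraries and none of 1 genotype only. Its strongest, chr4:134000443-134001284, with folds of 24.54 and 20.0 in the controls against 23.17 and 21.34 in the KO libraries, lies in the flank and covers the start of the neighbouring gene Dhdds, so it is no measure of Lin28a. Within the gene body the strongest was chr4:134013068-134013424, with folds of 9.07 and 8.12 in the controls against 7.63 and 5.99 in the KO libraries. Both controls were above both KO libraries, with a gap of 1.7 percentile points, and 17.7% of the regions in all 4 libraries were lower in KO by as wide a gap.

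Lin28b (chromosome 10) had 6 regions over a long gene, or 5.01 per 100 kb, the lowest density of the 8, with 3 in all 4 libraries and none of 1 genotype only. Its strongest region, chr10:45373115-45373767, lies in the flank beyond the gene's downstream end, with folds of 6.5 and 10.97 in the controls against 10.1 and 8.55 in the KO libraries, and the genotypes overlapped. The narrow region chr10:45483336-45483483 had folds of 7.48 and 5.78 in the controls against 4.45 and 4.01 in the KO libraries, a gap of 11.6 percentile points, and 4.38% of the regions in all 4 libraries were lower in KO by as wide a gap. It was not held by all 4 libraries when the lists were limited to the 100000 strongest summits.

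Hmga2 (chromosome 10) had 30 regions, or 24.0 per 100 kb, the highest density of the 8, with 16 in all 4 libraries, 1 only in control and 0 only in KO. It held regions that ranked apart in both directions. Inside the gene, 29.8 kb from the start, chr10:120446035-120447321 had folds of 9.96 and 10.14 in the controls against 6.48 and 6.11 in the KO libraries, and the control mean was 1.6 times the KO mean. Its percentiles were 83.6 and 84.0 against 68.5 and 67.3. Of the regions in all 4 libraries, 2.75% were lower in KO by a gap of 15.1 points or more. In the other direction, the region chr10:120477124-120477338, 0.8 kb before the start, had folds of 4.8 and 5.01 in the controls against 7.01 and 6.65 in the KO libraries. Its percentiles were 54.9 and 55.6 against 71.8 and 71.3, and 1.02% of the regions in all 4 libraries were higher in KO by a gap of 15.8 points or more. At chr10:120377157-120378069, near the far end of the gene, the folds were 9.58 and 8.58 in the controls against 8.06 and 6.76 in the KO libraries, a gap of 1.6 percentile points. The strongest region without a separation, chr10:120421939-120422489, had folds of 7.88 and 9.18 in the controls against 8.78 and 9.13 in the KO libraries.

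**Figure D4:**
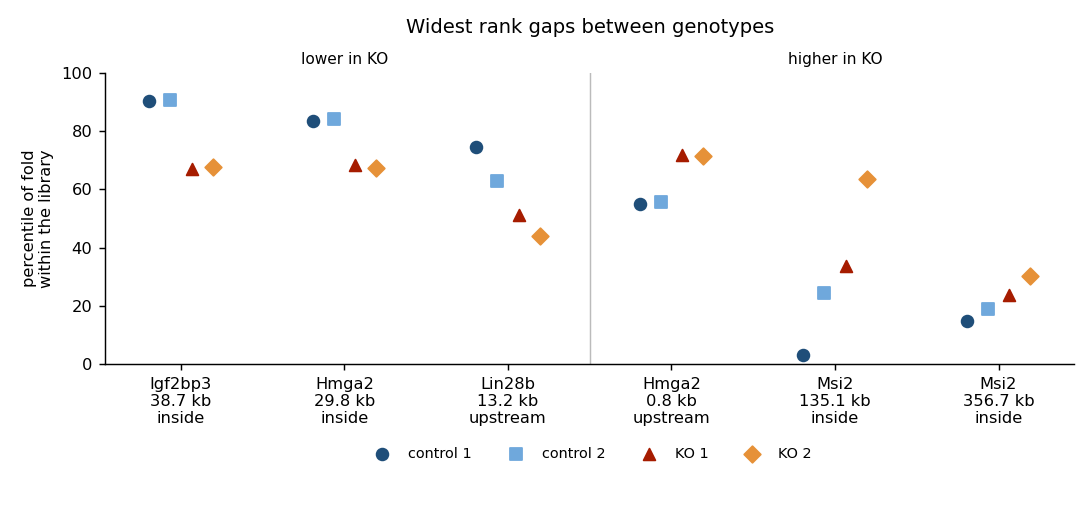
Percentile of the highest fold within each library (y axis) for the 3 regions with the widest gap between genotypes in each direction (x axis, with the distance from the tabulated start), with 1 point per library. The regions were selected for this gap. The Igf2bp3 region stands at 90.5 and 90.6 in the controls against 66.9 and 67.7 in the KO libraries, and the Hmga2 region before the start at 54.9 and 55.6 against 71.8 and 71.3.

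Of the 76 regions in all 4 libraries, 17 (22.4%) had both KO percentiles below both controls and 10 (13.2%) had both above. Over all regions in all 4 libraries the shares were 24.1% and 14.0%, so the members' counts were near the background in both directions, and the preponderance of lower ranks in KO belongs to the lists as a whole. The 17 were spread over the genes, with 3 at Msi2 and others at Msi1, Igf2bp2, Igf2bp3, Lin28a, Lin28b and Hmga2, and the 10 lay at Msi2, Igf2bp1, Igf2bp2, Igf2bp3 and Hmga2. At Msi2 the widest gap in the direction of higher in KO was at chr11:88582862-88583455, a weak region with folds of 2.23 and 3.1 in the controls against 3.37 and 5.57 in the KO libraries. It adjoins chr11:88583601-88583778, the strongest Msi2 region only in KO, and was not held by all 4 libraries in lists of equal length. The next, chr11:88361435-88361772, had folds of 2.65 and 2.95 in the controls against 3.0 and 3.3 in the KO libraries. In the direction of lower in KO the widest Msi2 gap, 7.5 points, was at chr11:88528414-88528775. Its folds were 5.5 and 5.22 in the controls against 4.35 and 2.58 in the KO libraries, and 7.66% of the regions in all 4 libraries were lower in KO by as wide a gap. The ranking was repeated by −log10 p, among regions in all 4 libraries alone, with lists of equal length and with the 100000 strongest summits. All were applied to the 3 regions with the widest gap in each direction, after their values were seen. Under each of the 4 the Igf2bp3 region at 49175994 and the Hmga2 regions at 120446035 and 120477124 kept both KO libraries on the same side of both controls. They were selected for their gap and re-ranked on the same lists, so this gives no support of its own. The Lin28b region at 45483336 and the Msi2 regions at 88582862 and 88361435 were not held by all 4 libraries with the 100000 strongest summits.

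**Figure D5:**
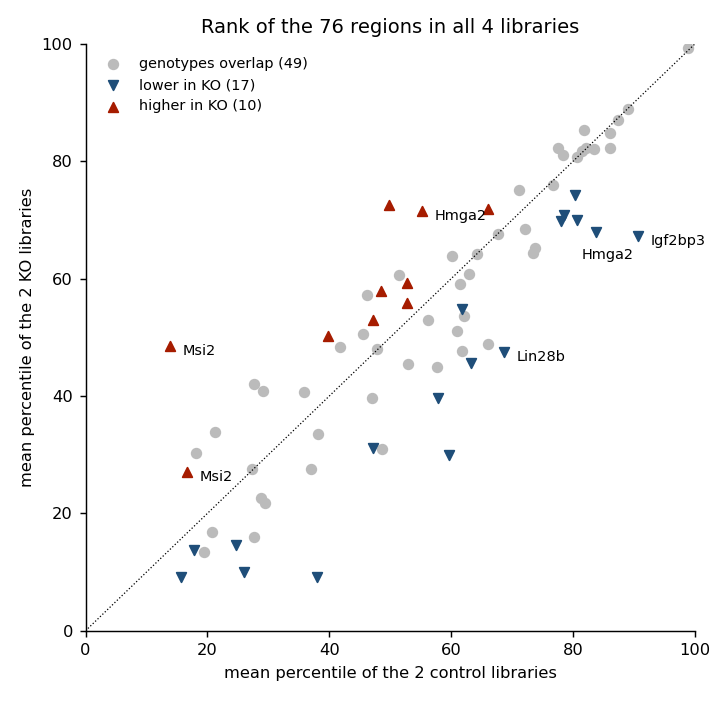
Mean percentile of the 2 KO libraries (y axis) against that of the 2 control libraries (x axis) for the 76 regions in all 4 libraries, with the line of equality dotted and the 3 widest gaps in each direction named. The 17 regions lower in KO and 10 higher in KO lie on opposite sides of the line, with 49 regions where the genotypes overlap. The highest-ranked of the regions higher in KO has a mean percentile of 69.0 over the 4 libraries.

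The other genes of the pathway had their starts open in every library. Of 13 genes that act in let-7 maturation or the fetal program, 9 had a start window and all 9 were open in all 4 libraries: Tut4 and Tut7, which add uridines to let-7 precursors, Dis3l2, which degrades those, Drosha, Dgcr8, Xpo5 and Dicer1, which make microRNAs, Hmga1, the relative of Hmga2, and Igf2, the growth factor whose mRNA gave the IGF2BP family its name. Together the 13 genes had 101 regions, with 64 in all 4 libraries (63.4%), 6 only in control (5.94%) and 4 only in KO (3.96%). Of 15 other RNA-binding proteins of blood cells, 12 had a start window and all 12 were open in all 4, among them Syncrip, which like MSI2 is known to act in HSCs, and Ythdf2, a reader of methylated mRNA. These 15 genes had 140 regions, with 71 in all 4 (50.7%), 8 only in control (5.71%) and 6 only in KO (4.29%). Celf2, a long gene like Msi2, carried 48 of them, with 5 only in control and 4 only in KO. The shares of the lists lie near those of all union regions in both directions.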

How the data were processed

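ATAC-Seq peak lists of 2 control and 2 Cpt1a-KO libraries were used. Per the labels, reads were aligned to mm10 with Bowtie2 and peaks called with MACS2, with versions not given in the sources used here. The authors called each library separately and deposited, for each summit, a fold (ratio) over the library's own background and the −log10 p and −log10 q. No read counts were used, so the depth and precision are unknown. The lowest deposited −log10 p was 2.0.

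Intervals overlapping by at least 1 bp were merged over the 4 lists in Python 3.11.15 (pandas 2.3.3, numpy 2.4.6), keeping regions held by at least 2 libraries. A region's percentile is that of its highest fold among the union regions its library holds. Gene positions were taken from RefSeq GRCm38.p6, where all 8 members matched (6 in the promoter table). The merging and counting were tested on simulated data. Regions named were those over a start or near it, the 3 of highest mean percentile per gene, the 5 strongest only in each genotype and the 3 widest rank gaps in each direction. The widest Msi2 gap lower in KO was added. The members and gene lists were chosen with earlier results of these data known. Alternatives were a −log10 q of at least 5, lists of equal length (240881 summits), the 100000 strongest summits, presence only where a library covers a share of 0.5 of the region, summits extended by 200 bp both ways, flanks of 1000 bp or none, other ranks and each library left out.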

Additional observations from a re-analysis of the deposited data

How the results depend on the processing

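The direction of the Msi2 rank difference (-6.3 percentile points, KO minus control) changed with the setting: it was 9.6 with the 100000 strongest summits, and ranged from -6.5 to 1.5 when a library was left out, at 1.5 without control 1 and 0.5 without KO 2. Ranked among regions in all 4 libraries it was -3.8. The difference over all members (-3.7) was negative under each setting run, at -9.8 with the strongest summits, -1.8 ranked by −log10 p, -1.3 among regions in all 4 libraries and -3.8 to -1.7 without a library. Over all regions in all 4 libraries the median percentile was 66.0 and 65.5 in the controls against 64.7 and 62.5 in the KO libraries. A lower KO median is therefore not particular to the members.

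Most counts fell with stricter lists. With summits of −log10 q under 5 left out, the members had 3 regions only in control, 0 only in KO and 34 in all 4 libraries, and Msi2 had 1, 0 and 9. The member shares were 5.17%, 0% and 58.6%, beside 7.02%, 0.807% and 67.6% of all regions. None of these 3 was among the 16 only in control in the full lists. With the 100000 strongest summits, the members had 1, 1 and 33, and Msi2 had 0, 0 and 10. With lists of equal length Msi2 had 5 only in control and 2 only in KO. Where a library had to cover a share of 0.5 of the region, 40 member regions and 12 Msi2 regions were in all 4, and 1 Msi2 region was only in KO, while member regions only in control rose to 24. Leaving out a library means that a single library stands for its genotype, and the counts were then 24 to 98 only in control and 12 to 80 only in KO for the members, and 13 to 56 and 5 to 46 for Msi2. The shares over all union regions were not taken for the coverage setting or for the left-out libraries. Whether these changes are particular to the members is therefore not known. Across these results, 47 alternative values were counted as near the reported one, 34 as moved and 3 as changed in direction. Near was taken loosely, since it includes changes from 16 to 24 and from 16 to 11 member regions only in control. For the 6 regions with the widest rank gaps, the alternatives were chosen after seeing the data, and none changed direction where the region was still held by all 4 libraries. As these regions were selected for the gap, this gives no support of its own. The cause of these changes was not tested.

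No paired analysis was possible because nothing ties a numbered control library to the KO library of the same number. The counts and ranks come from no test. The lists show no depth, and a region that a library lacks is known only to have missed that library's threshold.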
